A study of Mus musculus with 13 samples.

Results

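The mRNA levels of 38 genes of autophagy and of the lysosome were compared between wild-type and JNK knockout cell lines grown from mouse mammary tumours. The 38 genes were found by symbol among the 23845 genes of the deposited tables and cover 7 steps, from the kinase complex that starts autophagy to the lysosome that ends it. All 38 were present in both tables and passed the filter on low counts. The study's title places it in HER2-driven breast cancer, HER2 being the receptor tyrosine kinase encoded by Erbb2. There were 6 lines with the genotype label wild type (WT) and 7 with the label JNK knockout, all of the strain FVBN/J, each a separate primary line from a mammary gland tumour. JNK, the stress-activated c-Jun N-terminal kinase, has 3 genes in the mouse, Mapk8, Mapk9 and Mapk10. Both groups were grown alike, first on collagen I in low serum and later on standard dishes with serum, EGF and insulin. The labels give no treatment, no batch, no age, and neither the driver that removed the JNK genes nor the transgene behind the tumours. The titles of WT replicates 4 and 5 hold a common number, which may or may not mean a common animal. The p-values reflect just the variation among the lines at hand. If lines share an animal, those lines are not independent and the p-values may be too small. WT and knockout titles start with different letters, so a difference of colony or handling cannot be told apart from the genotype.

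Autophagy encloses a portion of the cytoplasm in a double membrane, the autophagosome, which fuses with a lysosome so that its contents are digested. The ULK kinase complex starts the process, a lipid kinase complex around Beclin 1 marks the site with phosphatidylinositol 3-phosphate, ATG9 and ATG2 proteins bring lipid, and a conjugation system attaches small ATG8 proteins to the membrane, where cargo receptors bind. Transcription factors of the MiT family, TFEB and TFE3, switch on lysosomal and autophagy genes through a short promoter element with the core letters CACGTG. JNK is known in other settings to phosphorylate BCL2 and so release Beclin 1, a step that acts on protein and need not be visible in mRNA.

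The promoter element is shown for the members that carry it, since it is what TFEB and TFE3, themselves members, are known to bind. RefSeq promoter windows of GRCm38.p6, each 250 bases before to 50 bases after a gene's start, were matched for 32 of the 38 genes. The extended form GTCACGTG, searched on both strands, was found in 4 of the 32 windows (12.5%), beside 2.55% of the 27025 promoters in the table. The 30 bases around each match are given 5′ to 3′ on the gene's strand, with the 8 bases of the match in capitals, either as GTCACGTG or as its reverse complement CACGTGAC.
Atg7, chr6:114670951-114670980, plus strand: ccatattggtgGTCACGTGtgcagtaagtg
Lamp1, chr8:13159122-13159151, plus strand: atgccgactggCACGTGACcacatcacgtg
Atg14, chr14:47568417-47568446, minus strand: aaacaaaatccCACGTGACtggccctgagc
Atg3, chr16:45158722-45158751, plus strand: ggcctccttttGTCACGTGtcctgggagag
Atg3, chr16:45158745-45158774, plus strand: gggagagtcgaGTCACGTGaggccttaggt
The Atg14 match began 1 base before the gene's start and spans it. The Atg7 window belongs to a start inside the gene's annotated span. The core CACGTG was in 5 of the 32 windows (15.6%), beside 8.09% of all promoters, the fifth being Atg5. TGANTCA, the letters AP-1 factors such as the JNK substrate c-Jun are known to bind, was in 1 window, that of Tfe3 (3.13%, beside 8.97% of all), and TGTTTAC, a FOXO motif, was in none (4.05% of all). These are matches of letters, not binding sites.

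Expected counts, the read numbers per gene that the authors' RSEM run estimated, summed to between 38298602 and 46689809 per line, so depth differed little. Values are given as CPM, counts scaled to a common library size after TMM, edgeR's correction for composition, unless TPM, which also corrects for transcript length, is named. The genotype labels were checked first: Mapk8 was 24.0 to 37.3 CPM in WT and 4.33 to 8.33 CPM in knockout lines, and Mapk9 was 55.0 to 73.1 and 8.90 to 24.7 CPM, with no overlap for either. Of the markers of other cell types, 5 endothelial genes summed to at most 0.822 CPM and 6 lymphocyte genes to at most 0.102 CPM in any line, with Cd3g, Cd2 and Ms4a1 at 0 reads. The 10 macrophage markers summed to between 52.5 and 198 CPM in WT and between 6.71 and 554 CPM in knockout lines, nearly all of it Cd14, with C1qa, C1qb and Tyrobp at 0 and Ptprc at most 0.178 CPM. The 7 fibroblast markers summed to between 11.6 and 479 CPM in WT, the highest being WT replicate 3, and between 2.77 and 55.9 CPM in knockout lines. Of the 6 epithelial markers, Krt5 and Krt14 were higher and Krt8 and Krt18 lower in knockout lines, with summed levels of 5369 to 6316 CPM in WT and 2960 to 21788 CPM in knockout lines. Knockout replicate 2 had the lowest Epcam, at 40.8 CPM, and the lowest Cdh1, at 92.3 CPM. The part of this epithelial difference in the results was not tested. In bulk RNA, fewer cells of a kind and less RNA per cell cannot be told apart.

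Few genes of the autophagy machinery differed between WT and JNK knockout lines beyond the spread of the lines. Of the 38 genes, 1 rose in knockout lines, Atg4b, which encodes the main protease that trims ATG8 proteins, and 1 fell, Atg16l2, which encodes a paralog of the ATG16L1 scaffold. The other 36 did not pass an adjusted p of 0.05 in edgeR's quasi-likelihood test, with Benjamini-Hochberg adjustment over the 13058 genes tested. The 2 called genes are 5.26% of the 38, and 8.51% of all genes tested were called. In each direction 1 of 38 was called, beside 4.33% of all genes higher and 4.17% lower in knockout lines. Log2 fold changes, knockout minus WT, ran from -0.73 to 0.87 over the 38 genes, with a median of 0.08 beside 0.0076 over all genes tested. They were above 0 for 23 genes and below 0 for 15. Before adjustment, 8 of the 38 had a p under 0.05, beside 26.3% of all genes tested. Ranges of CPM did not overlap between the groups for 2 of the 38, beside 4.05% of all genes. These were again Atg4b, with the knockout lines above (2.08% of all genes), and Atg16l2, with the knockout lines below (1.97% of all genes). The median biological coefficient of variation, edgeR's estimate of the spread between lines of a group, was 0.268 over the 38 genes and 0.352 over all genes tested, with Becn1 lowest at 0.185 and Atg9b highest at 0.742.

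**Figure D1:**
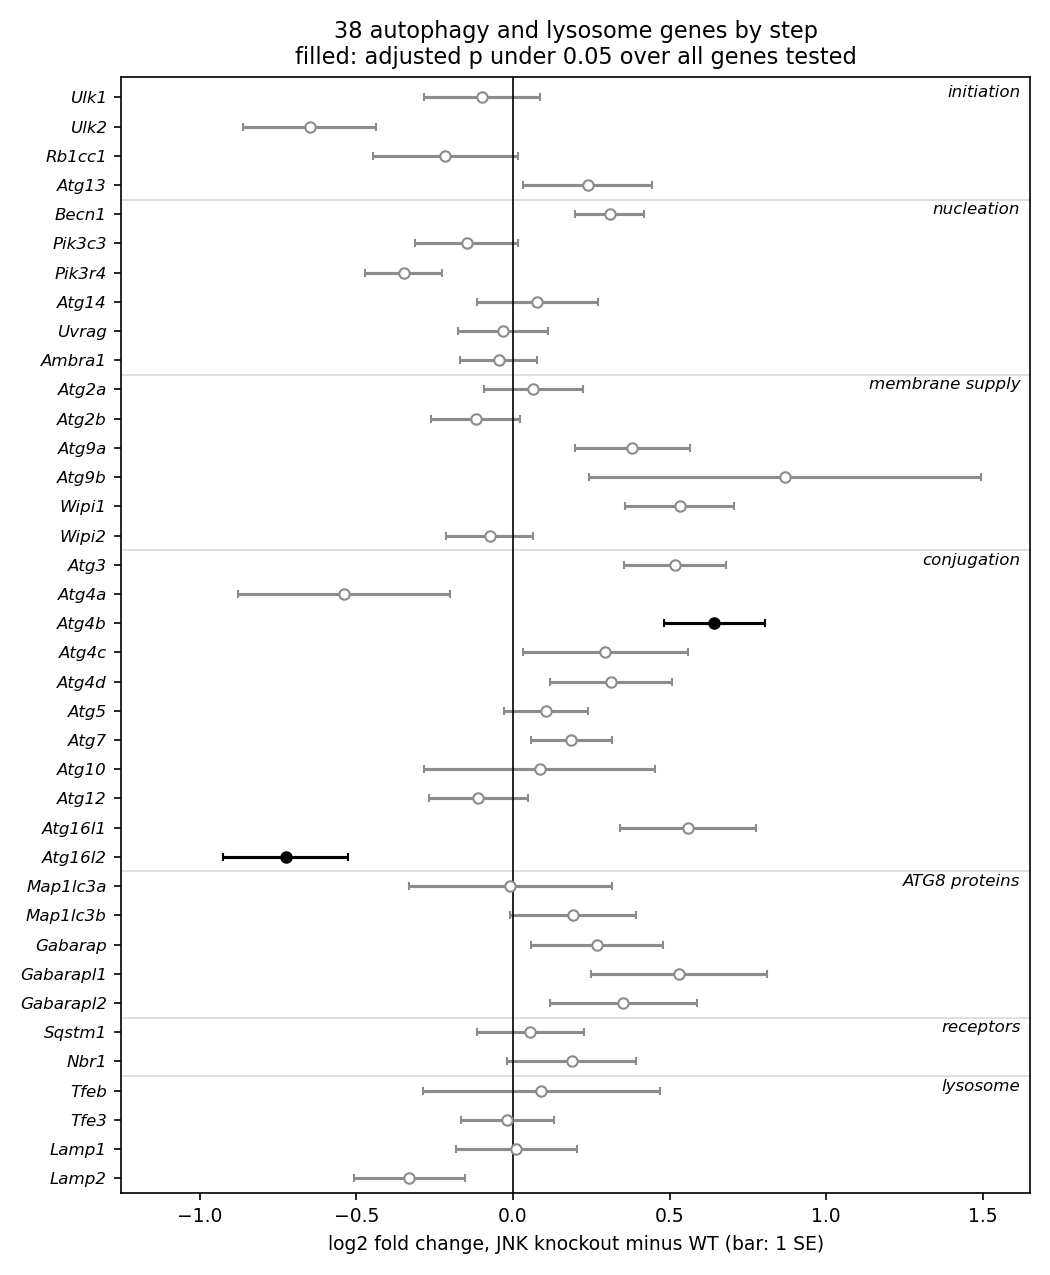
Log2 fold change of each of the 38 genes (horizontal axis, knockout minus WT, bar 1 SE), ordered by step. The filled points are Atg4b at 0.64 and Atg16l2 at -0.73, the 2 genes with an adjusted p under 0.05.

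Of the 4 genes of the ULK kinase complex, edgeR called 0, with 1 at an unadjusted p under 0.05 (26.3% of all genes), and their median log2 fold change was -0.16. Ulk1, a kinase that starts autophagy and the member of this step with the highest mean TPM, was 98.7, 108 and 167 CPM in WT lines (lowest, median and highest) and 79.8, 113 and 170 CPM in knockout lines. The groups overlapped over nearly their whole range, and the adjusted p was 0.78 for a log2 fold change of -0.10 (SE 0.19). Ulk2, its paralog on chromosome 11 (61775598 to 61855334), was 73.5, 81.9 and 123 CPM in WT and 36.1, 49.5 and 97.5 CPM in knockout lines. In 6 of 7 knockout lines the level was under the lowest WT value, and knockout replicate 6, at 97.5 CPM, was among the WT lines. The log2 fold change was -0.65 (SE 0.21, adjusted p = 0.073). Without knockout replicate 6 it was -0.83 with an adjusted p of 0.012, so that line decided the call. DESeq2, in place of edgeR, called Ulk2 with all lines (adjusted p = 0.034). Over all genes DESeq2 called 1130 higher and 977 lower, against 566 and 545 in edgeR. On TPM, Ulk2 was 39.6 ± 7.15% of the summed ULK1 and ULK2 transcripts in WT (SD, n = 6) and 30.3 ± 2.64% in knockout lines (SD, n = 7). Rb1cc1, the scaffold FIP200, and Atg13, an adaptor, had adjusted p-values of 0.59 and 0.49.

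The Beclin 1 lipid kinase complex gave 0 calls in edgeR over 6 genes, with 2 at an unadjusted p under 0.05 (26.3% of all genes) and a median log2 fold change of -0.04. Becn1 (chromosome 11, 101288258 to 101302286) encodes Beclin 1, the scaffold of the complex. It was 79.9, 100.2 and 110 CPM in WT and 106, 117 and 134 CPM in knockout lines, which gave an adjusted p of 0.095 for a log2 difference of 0.31 (SE 0.11). In 6 of 7 knockout lines Becn1 was above the highest WT line, and knockout replicate 6 was inside the WT range. The regulatory kinase subunit VPS15, encoded by Pik3r4, was 43.7, 50.2 and 52.4 CPM in WT and 26.7, 40.3 and 43.8 CPM in knockout lines (adjusted p = 0.090 for a log2 fold change of -0.35, SE 0.12). That gene was singled out after its values were seen, because 6 of 7 knockout lines lay below the WT range and replicate 5 was far below the rest. DESeq2 called both, with adjusted p-values of 0.041 for Becn1 and 0.038 for Pik3r4. Neither was called by edgeR on leaving out any single line. In limma on log2(TPM + 1) the log2 fold change of Becn1 was 0.09 (adjusted p = 0.67). On that scale the median of all genes was -0.19, beside 0.0076 in edgeR. Pik3c3, the catalytic subunit VPS34, and the complex's partners Atg14, Uvrag and Ambra1 had log2 fold changes from -0.15 to 0.08 and adjusted p-values from 0.60 to 0.91.

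Membrane supply covered the lipid transporters Atg2a and Atg2b, the scramblases Atg9a and Atg9b, and the phosphoinositide readers Wipi1 and Wipi2. Of these 6 genes edgeR called 0, with 1 at an unadjusted p under 0.05 (26.3% of all genes), and the median log2 fold change was 0.22. Wipi1 (chromosome 11, 109573521 to 109611389) was 41.3, 51.8 and 52.8 CPM in WT and 41.7, 69.6 and 98.8 CPM in knockout lines. Knockout replicate 5, at 41.7 CPM, lay at the bottom of the WT range and the other 6 knockout lines lay above it. The log2 fold change of Wipi1 was 0.53 (SE 0.17, adjusted p = 0.073), and 0.63 with an adjusted p of 0.018 without knockout replicate 5. DESeq2 called Wipi1 with all lines (adjusted p = 0.035). It was not called on leaving out any other single line. In limma on log2(TPM + 1), where the median of all genes was -0.19, its log2 fold change was 0.26 (adjusted p = 0.47). Its paralog Wipi2 was 107, 168 and 174 CPM in WT and 121, 148 and 184 CPM in knockout lines, overlapping throughout (adjusted p = 0.77). Wipi1 made up 42.8 ± 5.12% of the summed WIPI1 and WIPI2 TPM in WT (SD, n = 6) and 52.4 ± 5.65% in knockout lines (SD, n = 7).

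Atg9b, the member of this step with the highest mean TPM, was the least even gene of the 38 across lines. It was 5.95, 119 and 301.2 CPM in WT, the lowest in WT replicate 3 and the highest in WT replicate 1, and 72.0, 262 and 346 CPM in knockout lines. The log2 fold change of 0.87 was the highest of the 38 genes, and its SE of 0.63 left it far from the threshold (adjusted p = 0.40). Exons of Atg9b overlap those of Nos3 on the opposite strand in the annotation. The sources used here do not say whether counting used strand, so reads in the shared stretches cannot be told apart. Exons of other members overlap a gene on the opposite strand too, among them Becn1 with Cntd1, Sqstm1 with Mrnip and Lamp1 with Grtp1. Those of Atg9a overlap Gm29253 on the same strand. Atg9a, the widely expressed paralog, was 41.3, 51.0 and 77.2 CPM in WT and 53.4, 68.6 and 99.6 CPM in knockout lines (adjusted p = 0.21 for a log2 fold change of 0.38), with overlapping groups.

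The conjugation system held both called genes among its 11 members (18.2%, beside 8.51% of all genes tested). At an unadjusted p under 0.05 there were 4 of the 11 (36.4%, beside 26.3% of all genes). The median log2 fold change of this step was 0.19. Atg4b (chromosome 1, 93754905 to 93789606) was 23.5, 25.8 and 27.4 CPM in WT lines. In knockout replicates 1 to 7 it was 48.5, 51.0, 45.3, 28.8, 31.2, 30.1 and 44.9 CPM. Every knockout line lay above every WT line, with replicates 4, 5 and 6 just above the WT range and the other 4 well above it. The means were 25.6 ± 1.504 CPM (SD, n = 6) and 40.0 ± 9.54 CPM (SD, n = 7), which is 1.56-fold (adjusted p = 0.029 for a log2 fold change of 0.64, SE 0.16). In TPM the groups overlapped, since knockout replicate 5, at 12.4 TPM, lay below the WT range of 13.8 to 18.04 TPM. Limma on log2(TPM + 1) gave Atg4b a log2 fold change of 0.36 and an adjusted p of 0.22, on a scale that moved the median of all genes to -0.19. Leaving out 1 line at a time, Atg4b lost its call without WT replicate 1, 3 or 4 or knockout replicate 1, 3 or 7, with adjusted p-values from 0.051 to 0.060 and log2 fold changes from 0.60 to 0.65. With knockout replicate 2 and WT replicate 3 both left out, the adjusted p was 0.072.

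**Figure D2:**
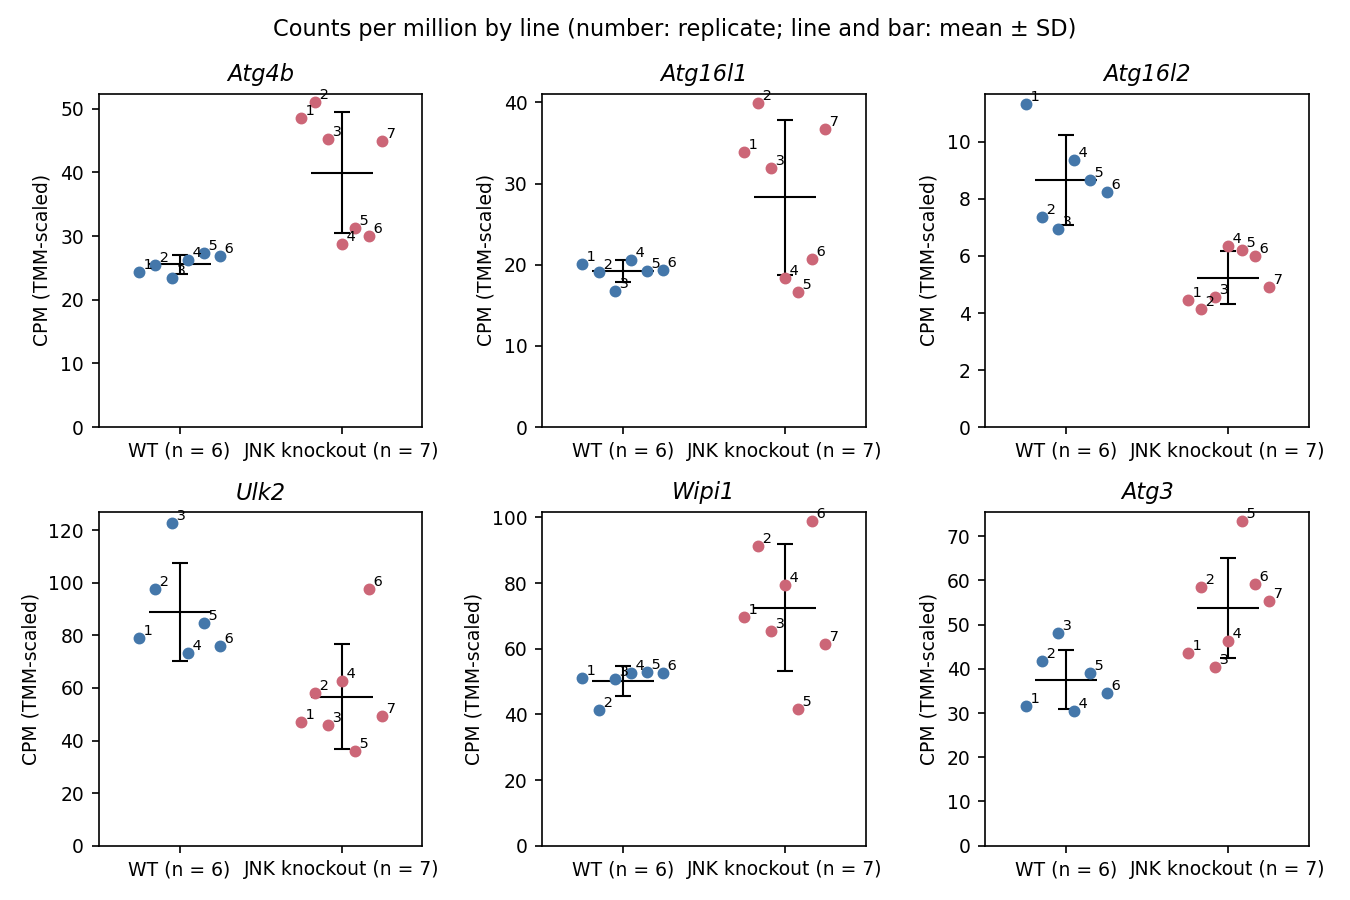
CPM of 6 genes in each line (vertical axes, from 0), WT in blue and JNK knockout in red, with the replicate number beside each point and a line and bar for mean ± SD. The groups are apart for Atg4b and Atg16l2, and knockout replicates 4, 5 and 6 stay near WT for Atg4b and Atg16l1.

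Atg16l1 (chromosome 1, 87756007 to 87792428), the scaffold that places ATG8 conjugation on the membrane, was highest in the same 4 knockout lines as Atg4b, replicates 1, 2, 3 and 7. It was 16.7, 19.3 and 20.6 CPM in WT and 33.9, 39.9, 31.9, 18.3, 16.7, 20.7 and 36.7 CPM in knockout replicates 1 to 7. Replicates 4 and 5 lay inside or just below the WT range and replicate 6 just above it, so the groups overlapped. The log2 fold change was 0.56 (SE 0.22, adjusted p = 0.12).

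Atg4b and Atg16l1 start 6 Mb apart on chromosome 1, and the genes around them were higher in the same lines. This comparison was added after the values were seen. For each gene, the level in a line was taken as log2(CPM + 0.5) minus the WT mean, and the median was taken over all tested genes that start within 5 Mb. The 39 neighbours of Atg4b had a median of 0.97, 0.84, 0.89, 0.28, 0.04, 0.04 and 0.89 in knockout replicates 1 to 7, beside 0.91, 0.98, 0.81, 0.17, 0.28, 0.23 and 0.80 for Atg4b itself. In WT lines the neighbours' median lay between -0.13 and 0.13. Averaged over lines, knockout minus WT was 0.60 for Atg4b and 0.59 for its neighbours, so Atg4b less its neighbours differed by 0.01, within the spread of lines (SD 0.14 in WT and 0.15 in knockout lines). Of these 39 neighbours 6 were called higher and 0 lower, at the same adjusted p threshold. Over all genes tested, 4.33% were called higher and 4.17% lower. The 52 neighbours of Atg16l1, some of them shared with Atg4b, had medians of 1.04, 1.03, 0.88, 0.29, 0.01, -0.03 and 0.72 in knockout replicates 1 to 7, with 8 called higher and 1 lower. Atg16l1 less its neighbours differed by -0.09 between the groups. The part of this regional difference in the call of Atg4b was not tested.

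**Figure D3:**
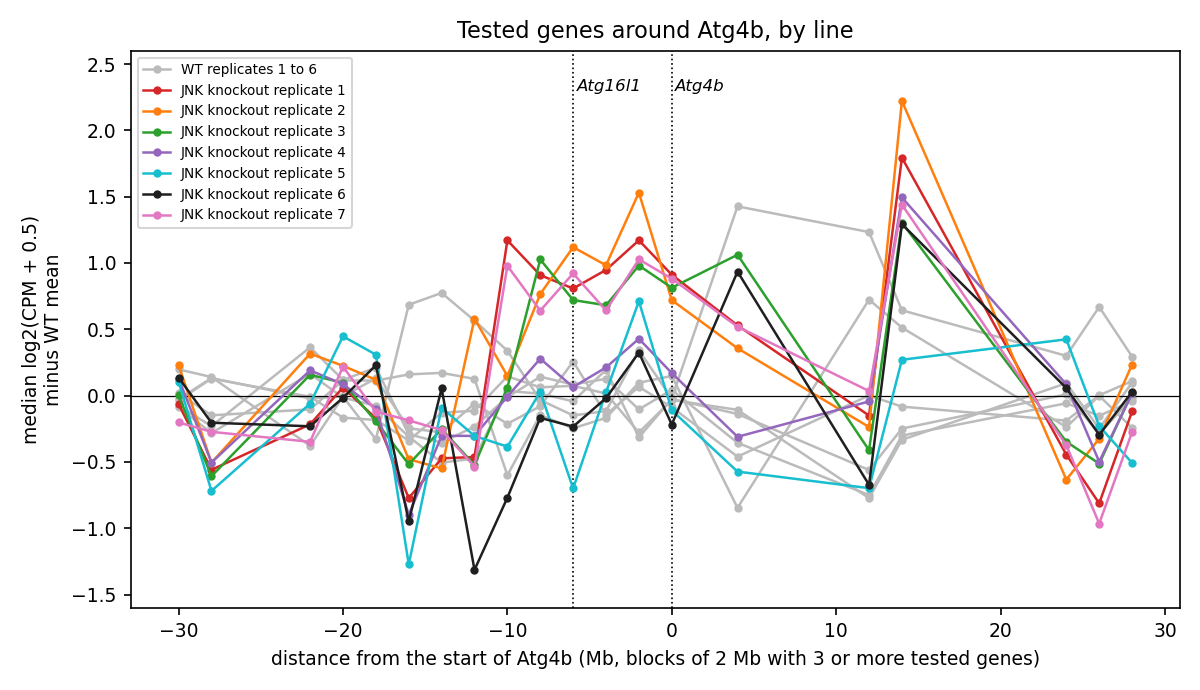
Median level of tested genes in blocks of 2 Mb along chromosome 1 (vertical axis, log2(CPM + 0.5) minus the WT mean) against the distance from the start of Atg4b (horizontal axis, Mb), 1 line for each cell line and blocks with 3 or more tested genes. Between Atg16l1 and Atg4b knockout replicates 1, 2, 3 and 7 lie between 0.64 and 1.53, above every other line.

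A further member had neighbours of that kind. Atg4c, another ATG4 protease, on chromosome 4 (99189159 to 99297258), had 30 neighbours whose median was 0.51, 0.89, 0.82, 0.26, -0.07, -0.01 and 0.48 in knockout replicates 1 to 7. Of these 30, 3 were called higher and 0 lower, beside 4.33% and 4.17% of all genes tested. Atg4c itself was 7.13, 8.75 and 12.9 CPM in WT and 5.06, 13.8 and 15.5 CPM in knockout lines, overlapping (adjusted p = 0.51 for a log2 fold change of 0.30, SE 0.26). Over the 38 genes, the difference between groups in the neighbours' median was highest for Atg4b, Atg16l1 and Atg4c, at 0.59, 0.57 and 0.41. The next was Gabarap, at 0.20. On the other side of 0 it was lowest for Atg4a, at -0.23, and Map1lc3a, at -0.22. For the genes with the lowest p after the called ones it was 0.14 around Ulk2, -0.01 around Atg3 and 0.16 around Wipi1. Around Becn1 it was 0.18, beside 0.31 for Becn1 itself, and around Pik3r4 0.07, beside -0.36 for Pik3r4. Of the 186 neighbours of Becn1, 19 were called higher and 5 lower, beside 4.33% and 4.17% of all genes tested. The part of this region in the level of Becn1 was not tested.

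Atg16l2 (chromosome 7, 101286325 to 101302267) fell in knockout lines without such a shift in the median of its neighbours. It was 6.95, 8.45 and 11.3 CPM in WT lines. In knockout replicates 1 to 7 it was 4.47, 4.14, 4.55, 6.35, 6.19, 6.01 and 4.91 CPM. Every knockout line lay below every WT line, and replicates 4, 5 and 6 were the closest to WT. The means were 8.65 ± 1.57 CPM (SD, n = 6) and 5.23 ± 0.925 CPM (SD, n = 7), which is 1.654-fold higher in WT (adjusted p = 0.039 for a log2 fold change of -0.73, SE 0.20). The 94 neighbours of Atg16l2 differed by -0.09 in their median and Atg16l2 less its neighbours by -0.59, beside an SD over lines of 0.28 in WT and 0.26 in knockout lines. Of the 94 neighbours, 8 were called lower and 4 higher, beside 4.17% lower and 4.33% higher of all genes tested. In TPM the groups were also apart, at 5.78 to 10.7 in WT and 3.21 to 5.37 in knockout lines. Exons of Atg16l2 overlap those of Fchsd2 on the opposite strand, and the level was low, with 2251 reads in all WT lines and 1504 in all knockout lines. The call was lost without WT replicate 1, 4, 5 or 6 or knockout replicate 1, 2, 3 or 7, where the adjusted p was 0.058 to 0.092 and the log2 fold change -0.74 to -0.63, with no filter on low counts (adjusted p = 0.066) and with WT replicates 4 and 5 summed (adjusted p = 0.072). With knockout replicate 2 and WT replicate 3 both left out it was 0.055.

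With Atg16l1 near or above the WT level and Atg16l2 below it, the makeup of the ATG16L transcripts differed between the groups. Of their summed TPM, Atg16l2 was 36.3 to 45.4% in WT lines, with a mean of 39.7 ± 3.12% (SD, n = 6). In knockout replicates 1 to 7 it was 16.4, 13.4, 17.5, 34.0, 35.4, 30.1 and 16.6%, with a mean of 23.3 ± 9.43% (SD, n = 7). No knockout line reached the lowest WT share, and replicates 4, 5 and 6 were the nearest to it.

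Among the other conjugation genes, Atg3 (chromosome 16, 45158829 to 45188538), the E2-like enzyme that attaches ATG8 to lipid, had the lowest p of the genes not called. It was 30.4, 36.8 and 48.1 CPM in WT and 40.4, 55.2 and 73.3 CPM in knockout lines. The groups overlapped, with 4 of 7 knockout lines above the WT range (adjusted p = 0.066 for a log2 fold change of 0.52, SE 0.16). Without WT replicate 3, the highest WT line, the adjusted p was 0.045 and the log2 fold change 0.60, and DESeq2 called Atg3 with all lines (adjusted p = 0.024). It was not called on leaving out any other single line. In limma on log2(TPM + 1), where the median of all genes was -0.19, its log2 fold change was 0.27 (adjusted p = 0.18). Atg12, the ubiquitin-like protein of the system and its member with the highest mean TPM, was 53.2, 68.8 and 80.3 CPM in WT and 44.4, 58.7 and 84.9 CPM in knockout lines (adjusted p = 0.70 for a log2 fold change of -0.11, SE 0.16). The E1-like enzyme Atg7, the E2-like enzyme Atg10 and Atg5, the partner of ATG12, had log2 fold changes of 0.19, 0.09 and 0.11 and adjusted p-values from 0.39 to 0.91. The 2 remaining ATG4 proteases, Atg4a and Atg4d, stood at -0.54 and 0.31, neither past the test (adjusted p = 0.33 for both). Of the summed ATG4 TPM, Atg4b was 37.7 ± 6.51% in WT (SD, n = 6) and 46.2 ± 7.78% in knockout lines (SD, n = 7), with overlapping ranges.

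The 5 genes of the ATG8 proteins, the ubiquitin-like proteins that coat the autophagosome, gave 0 calls in edgeR or DESeq2 and 0 unadjusted p-values under 0.05, with a median log2 fold change of 0.27. Gabarap led by mean TPM over all lines, at 404, followed by Map1lc3b, which encodes the common autophagy marker LC3B, at 166. Gabarapl2, Gabarapl1 and Map1lc3a were at 155, 139 and 79.9 TPM. Gabarap was 141, 195 and 297 CPM in WT and 164, 235 and 351 CPM in knockout lines, overlapping over most of the range (adjusted p = 0.45 for a log2 fold change of 0.27, SE 0.21). Its share of the ATG8 TPM was 43.0 ± 6.30% in WT (SD, n = 6) and 43.2 ± 4.39% in knockout lines (SD, n = 7). Gabarapl1 was 62.6, 103 and 167 CPM in WT and 87.6, 176 and 257 CPM in knockout lines (adjusted p = 0.25 for a log2 fold change of 0.53, SE 0.28), with 4 of 7 knockout lines above the WT range. Map1lc3b and Gabarapl2 had log2 fold changes of 0.19 and 0.35, and Map1lc3a of -0.01, with adjusted p-values of 0.58, 0.36 and 0.99.

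The 2 cargo receptors and the 4 lysosomal genes gave 0 calls in edgeR or DESeq2 and 0 unadjusted p-values under 0.05, with median log2 fold changes of 0.12 and -0.0035. Sqstm1, which encodes the receptor p62 and had the highest mean TPM of the 38 genes (565 TPM), was 474, 601 and 804 CPM in WT and 475, 601 and 790 CPM in knockout lines. The 2 ranges almost coincided, and the adjusted p was 0.87 for a log2 fold change of 0.06 (SE 0.17). Nbr1, the other receptor, had a log2 fold change of 0.19 (adjusted p = 0.60). Lamp1, a main protein of the lysosomal membrane, was 477, 647 and 919 CPM in WT and 426, 720 and 878 CPM in knockout lines (adjusted p = 0.98 for a log2 fold change of 0.01, SE 0.19). Lamp2, whose products act in fusion and in chaperone-mediated autophagy, was 339, 351 and 436 CPM in WT and 221, 255 and 422 CPM in knockout lines, with 4 of 7 knockout lines below the WT range (adjusted p = 0.25 for a log2 fold change of -0.33, SE 0.18). Tfeb ranged from 10.1 to 24.5 CPM in WT and from 7.07 to 40.2 CPM in knockout lines, and Tfe3 from 61.6 to 101 and from 60.4 to 101 CPM (adjusted p = 0.91 and 0.95). The 4 genes with a GTCACGTG match, shown above, had log2 fold changes of 0.19 for Atg7, 0.01 for Lamp1, 0.08 for Atg14 and 0.52 for Atg3.

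The knockout lines differed among themselves in how many of the 38 genes left the WT range. Against the WT range of each gene, knockout replicate 7 had 20 of the 38 genes above and 3 below, and replicate 6 had 17 above and 3 below. Replicate 5 had 9 above and 14 below, replicate 1 had 7 and 10, replicate 3 had 5 and 8, replicate 4 had 5 and 7, and replicate 2 had 11 and 3. These counts were not made over all genes tested. They therefore do not show whether the 38 genes left the WT range more often than other genes. The median over the 38 genes, as log2(CPM + 0.5) minus the WT mean, was 0.41 in replicate 7, 0.29 in replicate 6 and -0.20 in replicate 3. In WT lines it lay between -0.19 in replicate 1 and 0.15 in replicate 5. Over all tested genes the median lay between -0.02 and 0.01 in every line, and TMM scaling tends to hold it near 0.

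**Figure D4:**
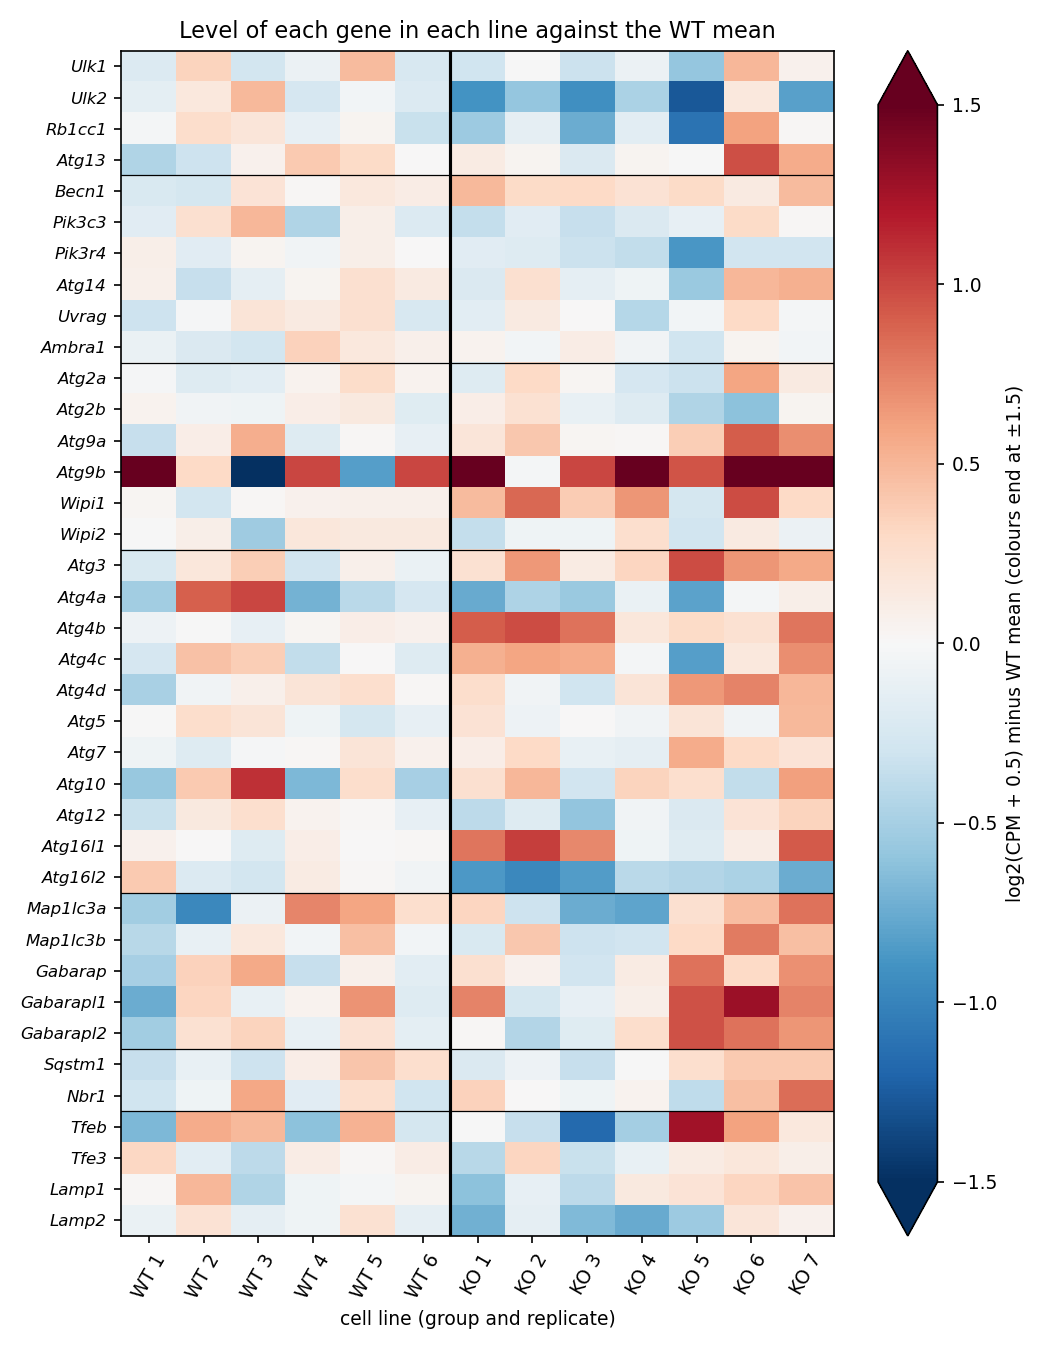
Level of each of the 38 genes in each line, as log2(CPM + 0.5) minus the WT mean (colour scale, ending at ±1.5), rows by step and columns by line, with WT left of the thick line and JNK knockout (KO) right of it. Knockout replicates 6 and 7, with medians of 0.29 and 0.41, are redder than the rest, and Atg9b varies most within WT.

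Knockout replicate 5 stood apart in a way tied to transcript length. Among all tested genes with a length, the 20% with the shortest transcripts (at most 1988 bases) had a median of 0.67 in that line. The 20% with the longest (at least 5263 bases) had a median of -0.68. In the other knockout lines the medians ran from 0.02 to 0.17 for the short class and from -0.24 to 0.0071 for the long class. In WT lines they ran from -0.11 to 0.11 and from -0.12 to 0.07. Of the 38 genes, 5 were in that short class and all 5 were above the WT mean in replicate 5, from 0.24 for Map1lc3a to 0.96 for Gabarapl1. There were 7 in the long class, of which 5 were below the WT mean, with Ulk2 lowest at -1.27, and Atg4d and Tfe3 were above it, at 0.66 and 0.13. Replicate 5 had the lowest value of the 13 lines for 11 of the 38 genes, whose longest transcripts ran from 2202 bases for Atg4a to 7607 bases for Rb1cc1. It had the highest value for 5 genes, from 1351 bases for Gabarap to 3895 bases for Atg7, so the lengths of these sets overlapped. The part of this length pattern in those values, or in the differences between the groups, was not tested.

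The wider pathway was described by 183 further genes in 8 lists, of which 173 were tested. Of these, 6 rose and 10 fell, together 9.25% beside 8.51% of all genes tested, and their median log2 fold change was 0.0039. Among 17 other core and regulator genes 2 rose and 2 fell (23.5% called, beside 8.51% of all genes tested). At an unadjusted p under 0.05 the share was 47.1%, beside 26.3% of all genes. Rubcnl, a promoter of autophagosome maturation, was 0.0702, 0.124 and 0.52 CPM in WT and 0.749, 1.49 and 2.11 CPM in knockout lines, apart in every line but very low, with 62 reads in all WT lines (adjusted p = 0.015 for a log2 fold change of 2.58). Nrbf2, a subunit of the Beclin 1 complex, was 17.9, 28.3 and 30.2 CPM in WT and 34.3, 37.6 and 53.2 CPM in knockout lines, also apart (adjusted p = 0.031 for a log2 fold change of 0.64). Zfyve1, which encodes the phosphoinositide-binding protein DFCP1, was 65.9, 80.7 and 107 CPM in WT and 40.8, 56.9 and 71.7 CPM in knockout lines, overlapping (adjusted p = 0.024 for a log2 fold change of -0.58). Tecpr1, a tether between autophagosome and lysosome, was named after its values were seen, and its WT replicate 3, at 227 CPM, was far above the other WT lines (adjusted p = 0.031 for a log2 fold change of -1.68). Without WT replicate 3 it was -1.09 with an adjusted p of 0.053, and the call of Tecpr1 was also lost without knockout replicate 1, 3 or 7 (0.052 to 0.058). Nrbf2 lost its call without WT replicate 2 or 3 or knockout replicate 1 or 7 (0.052 to 0.061), and Zfyve1 without WT replicate 5 (0.052). On log2(TPM + 1) Nrbf2 was not called either (adjusted p = 0.14).

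Of 37 genes of mTORC1 and AMPK signalling, the nutrient and energy sensing that holds back or starts the ULK complex, 1 rose and 1 fell. That is 5.41%, beside 8.51% of all genes tested. Both called genes encode sestrins, stress-induced proteins that restrain mTORC1. Sesn2 was 8.35, 24.9 and 32.0 CPM in WT and 30.7, 69.0 and 98.9 CPM in knockout lines, with a slight overlap (adjusted p = 0.020 for a log2 fold change of 1.51, SE 0.35, and adjusted p = 0.059 on log2(TPM + 1)). Sesn3 was 37.2, 46.9 and 86.2 CPM in WT and 20.5, 26.9 and 46.8 CPM in knockout lines, overlapping (adjusted p = 0.036 for a log2 fold change of -0.92, SE 0.25). The remaining sestrin gene, Sesn1, had a log2 fold change of 0.30 and was not called (adjusted p = 0.50). Sesn3 lost its call without WT replicate 2 or 5 or knockout replicate 1, 3, 4, 5 or 6, with adjusted p-values from 0.052 to 0.078. Of 6 MiT and FOXO transcription factors 1 was called (16.7%, beside 8.51% of all genes tested). Foxo1, an activator of autophagy genes, fell. It was 62.6, 82.0 and 223 CPM in WT, the highest in WT replicate 3, and 27.8, 44.1 and 48.5 CPM in knockout lines, with no overlap (adjusted p = 0.013 for a log2 fold change of -1.35, SE 0.28), and without WT replicate 3 it was still called, at -0.96.

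Among 18 other cargo receptors, 1 fell (5.56%, beside 8.51% of all genes tested). Stbd1, the receptor for glycogen, was 18.5, 24.2 and 39.2 CPM in WT and 5.69, 8.81 and 15.7 CPM in knockout lines, with no overlap (adjusted p = 0.0066 for a log2 fold change of -1.45, SE 0.25). None of 13 genes of fusion was called, at an adjusted p under 0.05 in edgeR, with 2 at an unadjusted p under 0.05 (26.3% of all genes tested). Ykt6, a SNARE protein, had the lowest p (adjusted p = 0.063 for a log2 fold change of 0.53), and without knockout replicate 6 its adjusted p was 0.046, and in DESeq2 it was 0.024. Of 21 subunits of the V-ATPase, the pump that acidifies the lysosome, 1 rose (4.76%, beside 8.51% of all genes tested). Atp6v0b, a subunit of the membrane ring, was 31.2, 47.3 and 68.8 CPM in WT and 62.5, 87.6 and 136 CPM in knockout lines, with a small overlap (adjusted p = 0.018 for a log2 fold change of 0.90, SE 0.20).

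The lysosomal hydrolases, the enzymes that digest the delivered contents, were the list furthest from 0 in its median. Of 44 tested genes 5 fell and 1 rose, 13.6% called beside 8.51% of all genes, and 32 of 44 had a log2 fold change below 0, with a median of -0.43 beside 0.0076 over all genes tested. Arsb, arylsulfatase B, which acts on glycosaminoglycans, was 74.8, 104 and 131 CPM in WT and 32.9, 45.3 and 54.6 CPM in knockout lines. The 2 groups were well apart (adjusted p = 0.0013 for a log2 fold change of -1.26, SE 0.16). Idua, the iduronidase of the same breakdown route, was 8.03, 13.2 and 18.9 CPM in WT and 4.14, 5.52 and 9.45 CPM in knockout lines, overlapping (adjusted p = 0.020 for a log2 fold change of -1.16), and its exons overlap those of Slc26a1 and Dgkq on the opposite strand. Ctsf, cathepsin F, went the other way, at 0.732, 3.2 and 9.23 CPM in WT and 7.82, 15.2 and 35.1 CPM in knockout lines (adjusted p = 0.022 for a log2 fold change of 2.27, SE 0.54). The 3 other genes that fell were named after their values were seen. They were Neu1, a sialidase (adjusted p = 0.030 for a log2 fold change of -0.88), Psap, the precursor of the saposins (-0.69, adjusted p = 0.033), and Ppt2, a thioesterase (-1.02, adjusted p = 0.036). Of 13 edgeR fits with 1 line left out, Neu1 was called in 9, Psap in 5 and Ppt2 in 6. Their adjusted p-values there reached 0.058, 0.070 and 0.075. Neu1 was 95.3 CPM in WT replicate 5, beside 41.8 to 51.1 CPM in the other WT lines. The count of 5 changed with single lines: it was 3 without WT replicate 3 or 6 or knockout replicate 4, and 2 without WT replicate 5 or knockout replicate 1 or 3. The count over all genes tested also fell, from 545 called lower with all lines. It was 422, 401 and 455 without WT replicate 3, WT replicate 6 and knockout replicate 4. Without WT replicate 5, knockout replicate 1 and knockout replicate 3 it was 384, 316 and 375. Arsb, Idua and Ctsf were called with any 1 line left out, and Idua was not (adjusted p = 0.055) with knockout replicate 2 and WT replicate 3 both left out.

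**Figure D5:**
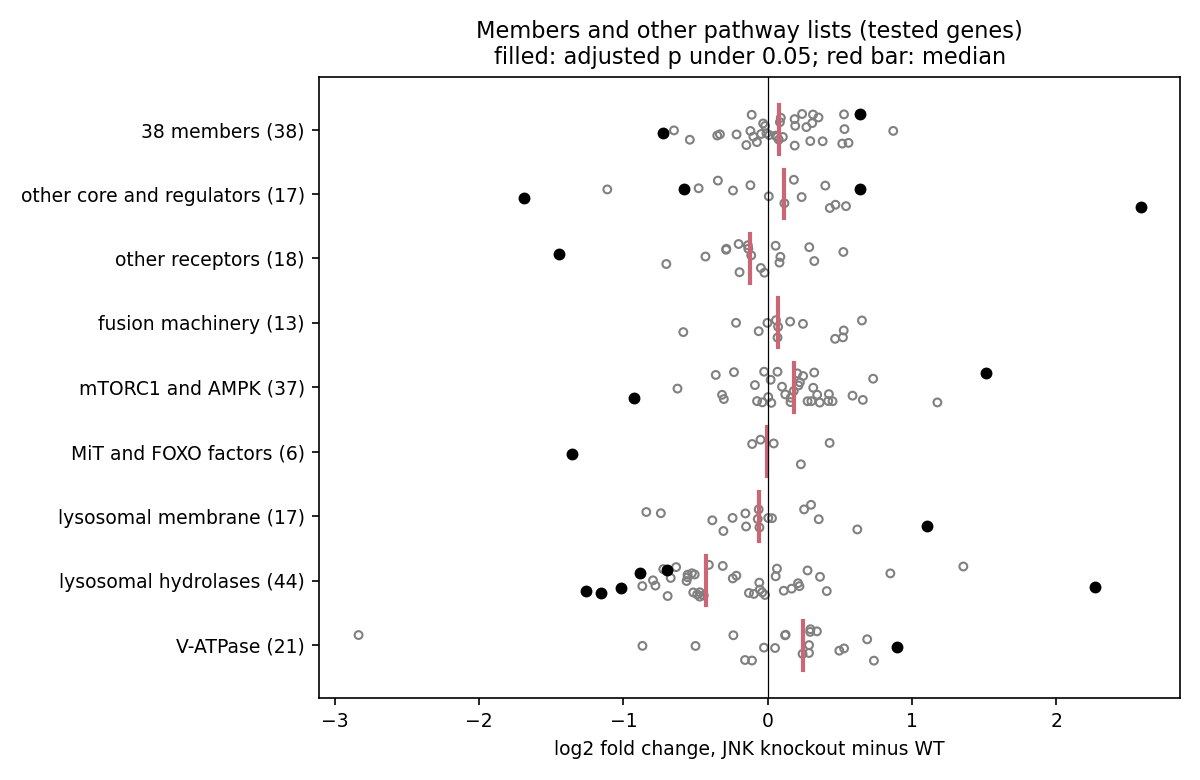
Log2 fold change (horizontal axis, knockout minus WT) of every tested gene of the 38 and of the 8 further lists (rows, number of tested genes in brackets), with a filled point for an adjusted p under 0.05 and a red bar at the median. The hydrolases have their median at -0.43 and the 38 genes at 0.08.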

How the data were processed

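Total RNA of 13 tumour cell lines (6 WT, 7 JNK knockout) was sequenced in paired-end libraries, per the labels' protocols. The authors deposited expected counts and TPM per gene, made with RSEM after cutadapt trimming, with mm10 and GRCm38 named as builds, per the submitters' processing notes. The aligner, the annotation release and the strand setting are, like all versions, not given in the sources used here. RSEM divides reads shared by similar genes by a model, so paralogs with near-identical stretches are less certain.

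Expected counts were rounded to whole numbers, filtered with filterByExpr (13058 of 23845 genes), scaled by TMM and tested with edgeR 4.0.16 in R 4.3.3 (quasi-likelihood F test, group as the only term), with Benjamini-Hochberg adjustment over all genes tested and a threshold of 0.05. The SE, approximate, is the size of the log2 fold change over the root of F. Alternatives used DESeq2 1.42.0 and limma 3.58.1. The deposited TPM values were used for shares within families, as means and, as log2(TPM + 1) or log2(TPM + 0.1), in limma.

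The 38 genes, the other lists and the rule for named genes were chosen with earlier results of these data known. Described by line were called genes, genes without overlap of the groups, the 3 next lowest p-values, the highest mean TPM in each step, and paralogs of these. Each further list gave up to 3 called genes with the lowest adjusted p, or the lowest p where none was called. Of the called genes of the further lists, 1 is not reported here. In the lists 7 symbols were matched through RefSeq synonyms. RefSeq positions (GRCm38.p6) were found for 12373 tested genes. Transcript lengths, the longest in GENCODE M21, were found for 12509.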

Additional observations from a re-analysis of the deposited data

Results flagged for a closer look

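Each of the 38 genes and of the 17 genes named from the further lists was examined in each group for a line far from the others, by Dixon's ratio of a gap to the whole range at the 95% level. Of 110 groups examined 9 held such a line, and of the 76 groups of the 38 genes 4 did. Chance alone gives about 1 in 20.

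Of the 38 genes, Pik3r4 was low in knockout replicate 5, at 26.7 CPM beside 37.9 to 43.8 in the other knockout lines. Wipi1 was low in WT replicate 2, at 41.3 CPM beside 50.7 to 52.8. Wipi2 was low in WT replicate 3, at 107 CPM beside 154 to 174. Atg16l1 was low in the same line, at 16.7 CPM beside 19.2 to 20.6.

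Of the further genes, Nrbf2 was high in knockout replicate 7, at 53.2 CPM beside 34.3 to 42.2. WT replicate 3 was high for Tecpr1, at 227 CPM beside 40.8 to 76.8, and for Foxo1, at 223 CPM beside 62.6 to 94.3. The same line was low for Ykt6, at 81.2 CPM beside 143 to 179. Neu1 was high in WT replicate 5, at 95.3 CPM beside 41.8 to 51.1.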

How the results depend on the processing

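Of the 38 genes, 1 was called higher and 1 lower in knockout lines in edgeR with TMM, with DESeq2 size factors, with upper-quartile scaling, with a filter of CPM above 1 in at least 6 lines, and in limma-voom. DESeq2 called 4 higher and 3 lower, beside 1130 higher and 977 lower of the 13058 genes tested. Limma on log2(TPM + 1) or log2(TPM + 0.1) called 0 higher and 2 lower, Atg16l2 and Ulk2, and put the median of the 38 genes at -0.17 or -0.18 beside -0.19 or -0.23 for all genes tested, with 286 higher and 998 lower or 322 higher and 981 lower over all genes, against 566 and 545 in edgeR. No filter on low counts gave 1 higher and 0 lower, as did summing WT replicates 4 and 5. Over all genes these settings called 560 and 405 higher and 513 and 406 lower. Leaving out 1 line gave 0 to 2 higher and 0 to 2 lower, with the median of the 38 between 0.0055 and 0.14. Over all genes those fits called 324 to 649 higher and 316 to 592 lower. Leaving out knockout replicate 2 and WT replicate 3 together, chosen after seeing the data, gave 0 of each. Over all genes that fit called 492 higher and 522 lower.

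The hydrolases, whose alternatives were also added after seeing the data, gave 1 higher in every setting run. The 5 lower became 10 in DESeq2, 10 and 10 in limma on the TPM scales, 2 to 7 with 1 line left out, and 2 without knockout replicate 2 and WT replicate 3. DESeq2 called 1130 genes higher and 977 lower over all genes, against 566 and 545 in edgeR. Limma on the TPM scales called 286 and 322 higher and 998 and 981 lower over all genes. With 1 line left out 316 to 592 genes were lower, and 522 without knockout replicate 2 and WT replicate 3. Causes of these shifts were not tested.

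No paired analysis was possible because the labels give no replicate numbers that WT and knockout lines share. Depth of 38298602 to 46689809 counts per line left few reads for Atg10, at 1.67 to 6.92 CPM, and Rubcnl, at 0.0702 to 2.11 CPM.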
